A study of Mus musculus with 15 samples.

Results

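Most of the genes described here encode proteins of the cytoplasmic ribosome or factors that start translation. They were followed as RNA targets of SAM68 while mouse embryonic stem cells differentiated. A protein-coding gene was included when its symbol began with Rpl or Rps and a digit, S6 kinase genes left out, or with Eif, and when at least 1 SAM68 binding site was assigned to it on any day. This gave 116 genes of the 7949 gene IDs in the lists, of which 44 were Rpl genes (large ribosomal subunit), 30 were Rps genes (small subunit) and 42 were Eif genes. All Eif genes are called initiation factor genes below. By symbol they include kinases that phosphorylate eIF2 alpha, the eIF4E inhibitor Eif4ebp2 and the exon junction protein Eif4a3. SAM68 (Khdrbs1), a nuclear RNA-binding protein of the STAR family, was mapped by iCLIP2 in the mouse embryonic stem cell line E14. In this method RNA is crosslinked to protein with ultraviolet light, the protein is pulled down with an antibody, and the end of each cDNA marks a crosslinked nucleotide. The groups were undifferentiated stem cells at day 0, embryoid bodies from hanging drops at day 3 and embryoid bodies kept in spheroid plates at day 10, so that day and culture format cannot be told apart. All groups came from the same line, with no genotype or drug difference in the labels, and each had 5 libraries.

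For each day the authors deposited a single list of sites of 5 nt, with no value per library. The lists held 29740 sites in 5056 genes at day 0, 28266 sites in 5034 genes at day 3 and 74287 sites in 6345 genes at day 10. Read depth is unknown, and the spread between libraries could not be measured, so no test between days was possible and every interval below is an exact binomial 95% interval that covers counting error only. Sites of one gene share its RNA and are not independent. RNA levels were not measured, so a gene with more sites cannot be told apart from a gene with more RNA, and in a mixed body fewer cells of a type and less RNA per cell cannot be told apart. Site counts over marker lists differed between the days. Stem cell markers had 105, 8 and 1 sites at days 0, 3 and 10, and day 3 markers had 0, 45 and 0. Heart markers had 0, 4 and 681, and endoderm markers had 0, 5 and 200. Of the 681 heart marker sites at day 10, 439 were in Slc8a1, a gene of 365 kb.

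Ribosomal proteins are made from short, very abundant mRNAs whose transcription begins in a run of pyrimidines, the terminal oligopyrimidine tract, through which their translation is controlled as a group downstream of mTOR. Many ribosomal protein genes also carry small nucleolar RNAs in their introns. Initiation factors bring the initiator tRNA (eIF2), the mRNA cap (eIF4E, eIF4G, eIF4A) and the small subunit (eIF3) together at the start codon. SAM68 is known for binding U- and A-rich motifs such as UAAA.

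The sequences that follow show where SAM68 sites lay at the starts of ribosomal protein transcripts. They are all positions from 10 nt before to 50 nt after an annotated start that were called at the identical position on all 3 days and for which a full window of 25 nt was at hand, 10 positions in 9 genes. The windows are from the RefSeq promoter table of GRCm38.p6 and run 5′ to 3′ on the gene's strand. Capitals mark the 5 nt of the binding site. Positions count the annotated start as 1 and the nucleotide before it as -1.
Rpl14, chr9:120571501-120571525, plus strand, site centre at -4: agggcgggccCTCTCtcttctcgct
Rpl34, chr3:130730337-130730361, minus strand, site centre at -12: tcacccgcccCTTCCttttcctctt
Rpl34, chr3:130730332-130730356, minus strand, site centre at -7: cgccccttccTTTTCctcttccggg
Rpl36a, chrX:134585674-134585698, plus strand, site centre at 33: gctctagcctCTCTCtttccgagct
Rpl38, chr11:114668577-114668601, plus strand, site centre at 10: gttctttcccCGTTCtcttcggttc
Rpl39, chrX:37085175-37085199, minus strand, site centre at 36: cttccggtccCGGCCtttctcttct
Rps12, chr10:23787190-23787214, minus strand, site centre at 8: cggccaccgcCGGCCttttcccctg
Rps18, chr17:33955651-33955675, minus strand, site centre at 3: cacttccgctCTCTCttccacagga
Rps21, chr2:180257403-180257427, plus strand, site centre at 37: gcacgagctaCTTCCtttctgcgct
Rps26, chr10:128626491-128626515, minus strand, site centre at 4: caagccgccgGATCCtctttcgagt
In each window the last nucleotide of the site lay in an unbroken run of C and T, from 8 nt in Rpl38 to 20 nt in Rpl34. The Rpl34 site at -12 lies within the window through the start of the gene span, which differs from the start in the promoter table. A further 3 positions in Rps2, Rps23 and Rps24 were also identical on all 3 days but lay too near the end of the table for a full window.

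Sites at the start were a feature of ribosomal protein genes across the family. They made up 16.7% of the sites in these genes at day 0 (43 of 258, interval 12.3% to 21.8%), 18.5% at day 3 (63 of 341, 14.5% to 23.0%) and 15.6% at day 10 (63 of 403, 12.2% to 19.6%). Among the sites of all other named genes the share was 0.0664%, 0.130% and 0.0581% at days 0, 3 and 10. Other genes with a span of at most 5 kb, the length of most ribosomal protein genes, had 2.26% at day 0 (interval 0.835% to 4.86%), 3.72% at day 3 (1.87% to 6.55%) and 3.02% at day 10 (1.77% to 4.80%). The intervals of ribosomal protein genes and of other short genes did not overlap on any day. Initiation factor genes had 0 of 183 and 0 of 151 such sites at days 0 and 3 and 1 of 225 at day 10, which was in Eif3f, a subunit of eIF3. Of the 74 ribosomal protein genes with sites, 43 had one at the start on at least 1 day and 30 had one on all 3 days. The Rpl genes (16.9%, 21.2% and 18.4% of their sites) and the Rps genes (16.4%, 14.9% and 12.2%) had overlapping intervals on each day.

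**Figure D1:**
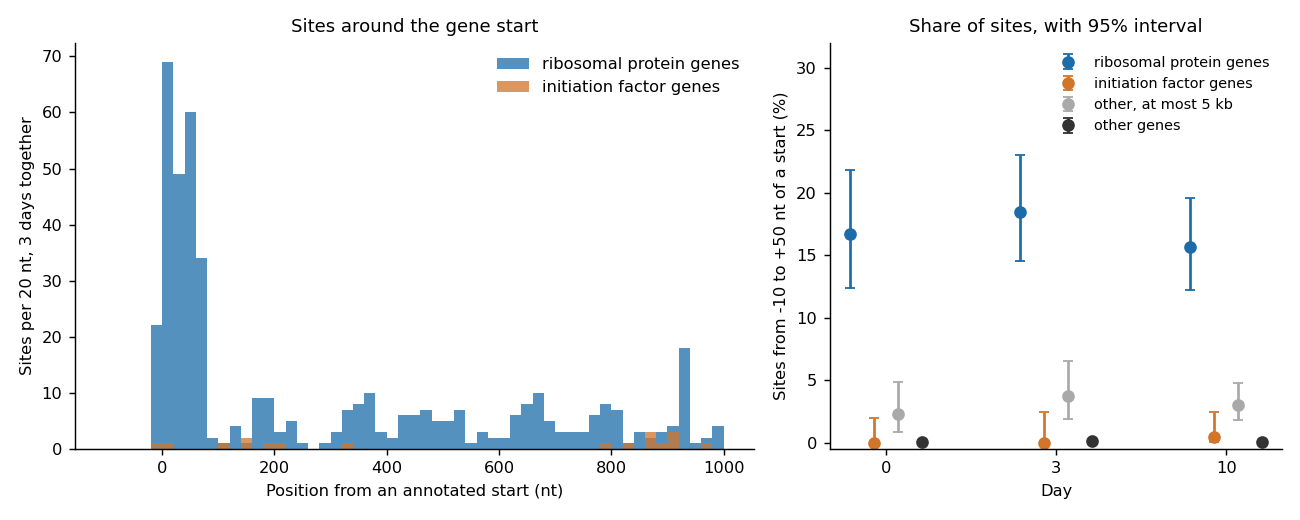
Left, number of sites per 20 nt by position from an annotated start, for ribosomal protein genes (blue) and initiation factor genes (orange), 3 days together; where a gene has several starts, one with the site from 10 nt before to 50 nt after it was taken first, otherwise the nearest. Right, percentage of sites in that window at days 0, 3 and 10 with exact binomial 95% intervals, for both families, other genes of at most 5 kb and all other genes. Sites of ribosomal protein genes are crowded at the start, with 15.6% to 18.5% in the window.

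The crowding had an edge beyond the window used. With the window drawn out to 100 nt the share was 23.6% at day 0, 24.9% at day 3 and 21.6% at day 10. Sites of Rps3, a small-subunit protein at the mRNA entry channel, lay at 57, 62 and 67 nt from the start at days 0 and 3 and at 62 and 67 nt at day 10, outside the shorter window. Within the shorter window, 19 of 43 sites at day 0, 28 of 63 at day 3 and 26 of 63 at day 10 lay no further than position 10, and the median position was 13, 17 and 17.

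The sites at the start were pyrimidine-rich on a pyrimidine-rich ground. Sequence was at hand for 93 distinct sites in 36 ribosomal protein genes. Their 5 nt were 50.8% T, 38.5% C, 8.82% G and 1.94% A, while the 60 nt around the starts of the same genes were 24.9% T, 33.7% C, 28.9% G and 12.5% A. All 5 nt were C or T in 60 of 93 sites (64.5%), compared with 15.8% of all runs of 5 nt in the same 60 nt regions and 5.34% in those of other genes. The run CTTTC, searched on the gene's strand after the sequences had been seen, was in 53 of 93 windows (57.0%). It was in 26 of 66 start regions of 60 nt of the ribosomal protein genes (39.4%), in 6 of 48 of the initiation factor genes (12.5%) and in 7.21% of those of other genes. Neither TAAA nor TTAA, the DNA letters of SAM68's known motif core, was in any of the 93 windows. The 60 nt start regions held TAAA in 7 of 66 cases and TTAA in 2 of 66 for ribosomal protein genes, and in 12.6% and 10.8% for other genes. The windows are shorter than the regions, some are cut off at the end of the table and those of one gene overlap. All these motifs were searched on the gene's strand alone, and whether the base preference of the ultraviolet crosslink moves these shares was not tested. A start written in the table as C followed by 4 pyrimidines, the textbook form of the tract, was found for 12 of 66 ribosomal protein starts (18.2%), 2 of 48 initiation factor starts (4.17%) and 2.46% of other starts.

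Among the 7029 other named genes, 57 had a site at the start, with 93 of 123878 sites, and 7 had one on all 3 days. These 7, named after their values were seen, were Rplp0, Rplp2 and Rpsa, which encode ribosomal proteins outside the symbol rule, Rack1, a protein of the small subunit, Hsp90ab1 and Hspa8, which encode chaperones, and Srsf5, a splicing factor. A further 11 genes had one on 2 days, with Fau, Eef2 and Trip12 at 5, 3 and 3 sites and Actg1, Atp5b, Ddx5, Dppa5a, Hnrnpa2b1, Hnrnpc, Sub1 and Ywhae at 2 each. Fau encodes a small-subunit protein fused to a ubiquitin-like protein and Eef2 the translocation factor of elongation, while the other 9 are not genes of the ribosome or of its translation factors.

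Most of the ribosomal protein family had sites. Of 87 RefSeq protein-coding genes that match the Rpl or Rps pattern, 74 had a site (85.1%, interval 75.8% to 91.8%), and of 56 matching Eif 42 had one (75%, 61.6% to 85.6%). The share among all other protein-coding genes was 32.3%. At spans of at most 5 kb the difference was wider, with 62 of 71 ribosomal protein genes (87.3%) and 299 of 4968 other genes (6.02%). The other genes include any that are not expressed in these cells, and RNA levels were not matched. Among the ribosomal protein genes with sites 63 of 74 had sites on all 3 days (85.1%), compared with 28 of 42 initiation factor genes (66.7%) and 2965 of 7029 other named genes (42.2%). The matching genes without a site included Rpl13 and Rpl24, which encode proteins of the large subunit, and Rpl3l and Rpl39l, paralogs of Rpl3 and Rpl39. Rpl10l, a paralog of Rpl10, had 1 site, at day 0. Rps25 carried 4, 4 and 5 sites at days 0, 3 and 10 under an ID that the position rule left unnamed, because 7 of its 13 sites lay in the RefSeq span, and it is not counted among the members.

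Ribosomal protein genes were also dense in sites for their length. The median over genes was 0.868 sites per kb of gene span at day 0, 1.35 at day 3 and 1.39 at day 10. Initiation factor genes had medians of 0.128, 0.117 and 0.189 sites per kb, and other genes with a site on any day 0.0298, 0.0287 and 0.0825. Spans differed, with medians of 3.17 kb, 22.4 kb and 37.8 kb, and other genes entered through any site at all. The numbers per gene were small. The median ribosomal protein gene had 3 sites at day 0, 4.5 at day 3 and 5 at day 10, and the highest had 14, 14 and 13.

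**Figure D2:**
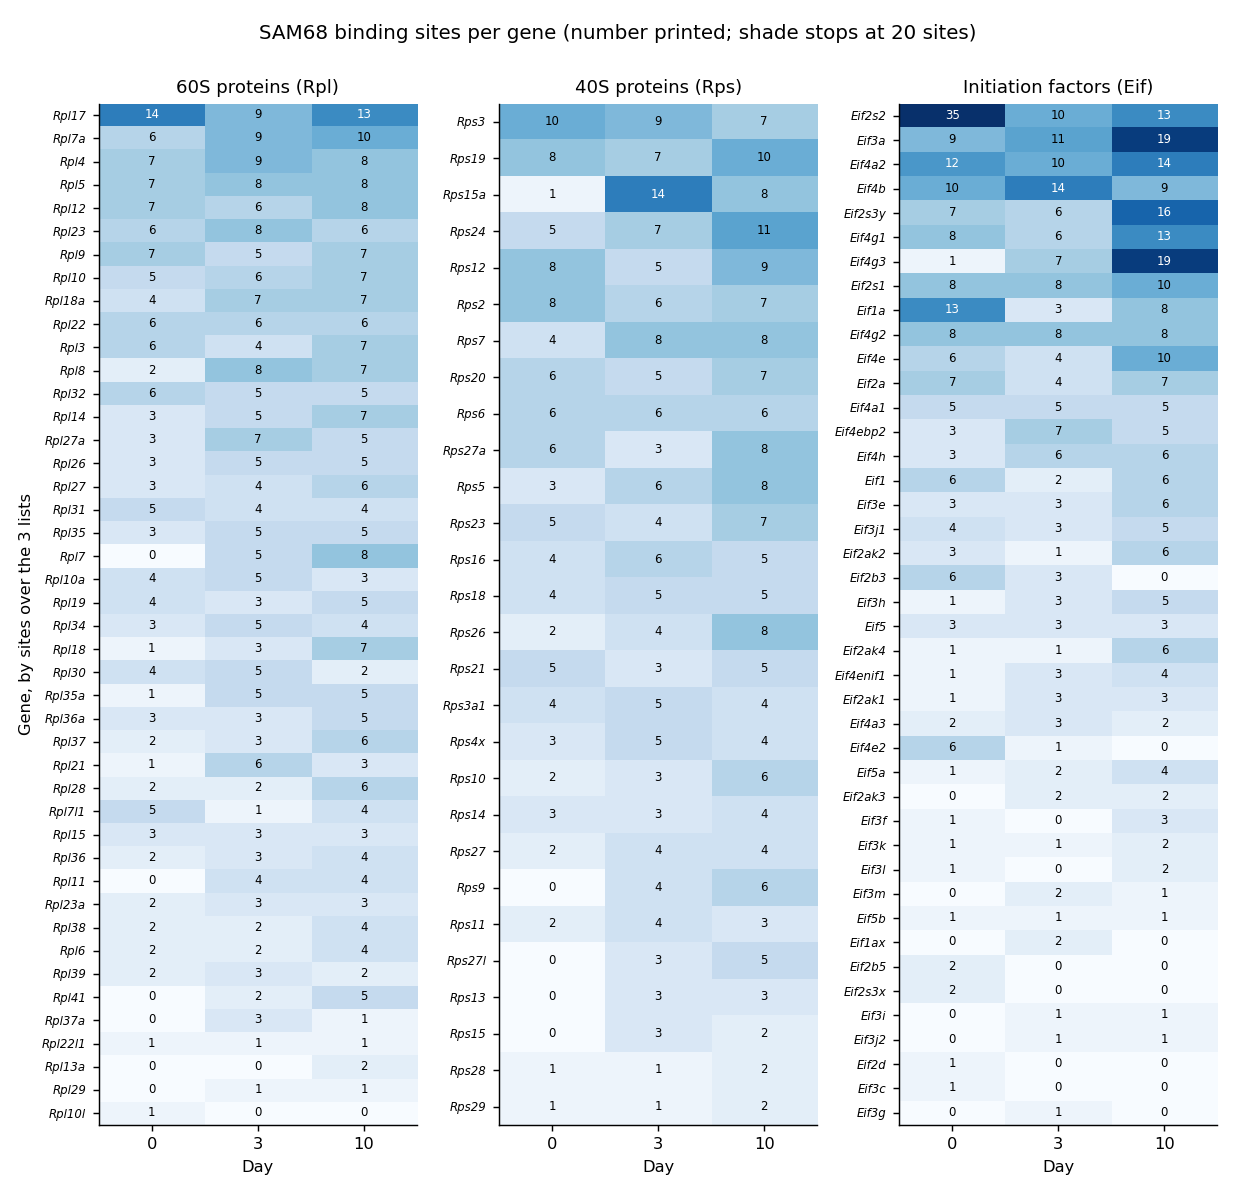
Number of SAM68 sites of each of 114 genes at days 0, 3 and 10 (columns), in 3 panels for Rpl, Rps and Eif genes, ordered by their sum. The number is printed in each cell and the shade stops at 20 sites. Most ribosomal protein genes have a few sites on each day, while Eif2s2 stands out with 35 at day 0.

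As a share of all SAM68 sites, ribosomal protein genes stood highest at day 3. They held 258 sites at day 0, 341 at day 3 and 403 at day 10, which is 86.8, 121 and 54.2 per 10000 sites of the list. The share at day 3 was 1.39 times that at day 0 (interval 1.18 to 1.64). The share at day 10 was 0.625 times that at day 0 (0.534 to 0.734) and 0.450 times that at day 3 (0.388 to 0.521). The Rpl genes had 148, 193 and 223 sites and the Rps genes 110, 148 and 180, with ratios of 0.603 and 0.655 at day 10 over day 0 and of 1.37 and 1.42 at day 3 over day 0. Initiation factor genes had 183, 151 and 225 sites, or 61.5, 53.4 and 30.3 per 10000. The single gene Eif2s2 held 35, 10 and 13 of these sites. For the initiation factor genes together the ratios were as follows. Their share at day 10 was 0.492 times that at day 0 (0.403 to 0.602), and at day 3 it was 0.868 times that at day 0 (0.695 to 1.08), an interval that holds 1.

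The lower shares at day 10 stood beside a list that had grown mainly in long genes. Other genes over 100 kb had 35781 sites at day 10, against 10564 at day 0, and their share was 1.36 times as high. For day 10 over day 0, other genes of 20 to 100 kb had a ratio of 0.867 and those of 5 to 20 kb 0.697 (interval 0.663 to 0.733). Ribosomal protein genes of 5 to 20 kb had 0.557 (0.399 to 0.780), an interval that holds 0.697. Initiation factor genes had 0.446 (0.302 to 0.658) at 5 to 20 kb and 0.456 (0.355 to 0.585) at 20 to 100 kb. Other genes of at most 5 kb had a share at day 10 of 0.849 times that at day 0 (interval 0.732 to 0.986) and at day 3 of 1.18 times that at day 0 (0.992 to 1.39). Ribosomal protein genes of at most 5 kb had 0.648 (0.540 to 0.779) for day 10 over day 0 and 1.42 (1.18 to 1.72) for day 3 over day 0. Both intervals overlapped those of other short genes. For day 10 over day 0 the ratio was 0.763 times that of other short genes, a value for which no interval was computed. The number of ribosomal protein sites was higher at day 10 than at day 0, so the lower share is relative to the list.

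**Figure D3:**
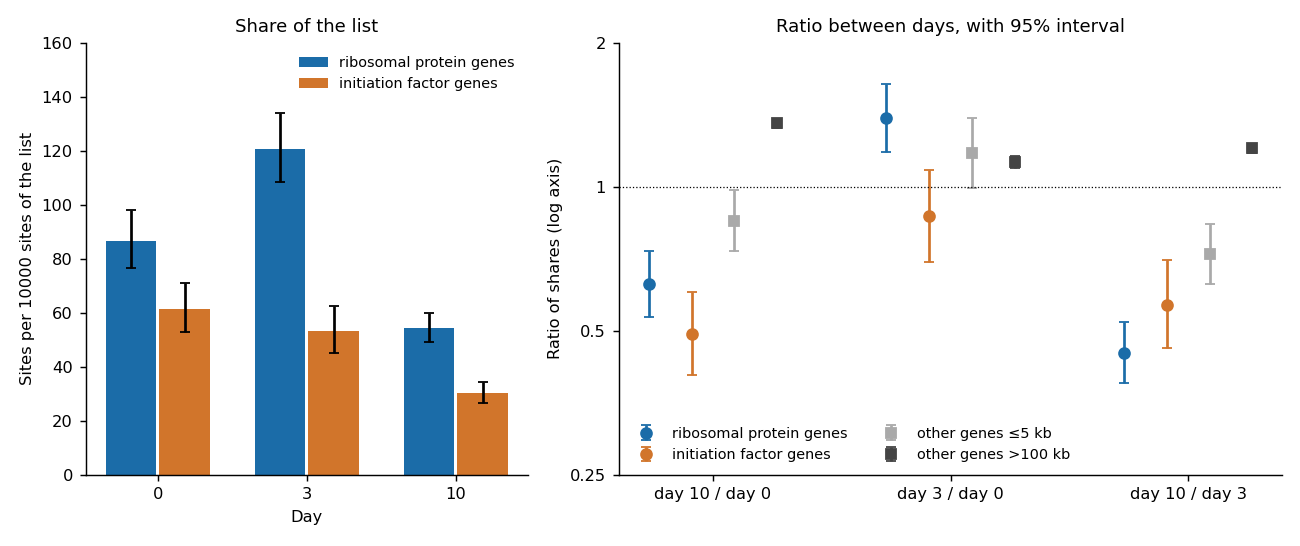
Left, sites per 10000 sites of the list at days 0, 3 and 10 for ribosomal protein and initiation factor genes. Right, ratio of the share between 2 days on a log axis for both families and for other genes of at most 5 kb and over 100 kb; error bars are exact 95% intervals for counting error. The ribosomal protein share is 1.39 times as high at day 3 as at day 0 and 0.625 times as high at day 10 as at day 0.

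The members were also compared one by one. A gene is called here when its ratio of shares, with 1 added to both counts, was at least 2 in either direction. Only genes whose counts in the 2 lists summed to 5 or more entered. At day 10 over day 0, 25 of 62 ribosomal protein genes and 13 of 26 initiation factor genes were lower, where 26.4% of the 3530 named genes were lower, and 4 and 1 were higher, where 28.5% of named genes were. A gene with equal counts falls among the lower ones in this comparison, since the day 10 list is longer. Eif4g2 with 8 sites on each day, for example, had a ratio of 0.400. At day 10 over day 3, 40 of 67 ribosomal protein genes and 11 of 26 initiation factor genes were lower against a background of 25.9%, and none was higher against 23.1%. With a fold of 3 the reading at day 10 over day 0 turned, since 3 of 62 ribosomal protein genes and 4 of 26 initiation factor genes were lower, where 17.5% of named genes were. At day 3 over day 0, 6 of 57 ribosomal protein genes were higher and 1 was lower, both under the background of 19.3% and 17.7%. Of 22 initiation factor genes 2 were higher and 4 lower. The median log2 ratio of ribosomal protein genes was -0.91 at day 10 over day 0, 0.40 at day 3 over day 0 and -1.20 at day 10 over day 3. The medians of all named genes were -0.09, 0.07 and -0.17, and those of initiation factor genes -0.88, -0.02 and -0.81.

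Among large-subunit genes Rpl17 had the most sites, 14 at day 0, 9 at day 3 and 13 at day 10, and its share at day 10 was 0.372 times that at day 0 (interval 0.161 to 0.853). Rpl7a had 6, 9 and 10 sites, Rpl4 had 7, 9 and 8, and Rpl12, a protein at the base of the ribosomal stalk, had 7, 6 and 8. Rpl5 and Rpl11 bind the 5S rRNA together before joining the subunit. Rpl5 had 7, 8 and 8 sites, while Rpl11 had 0, 4 and 4. Rpl7 had no site at day 0, 5 at day 3 and 8 at day 10, and its like-named relative Rpl7l1 had 5, 1 and 4. Rpl8, with 2, 8 and 7 sites, and Rpl21, with 1, 6 and 3, were among the 6 ribosomal protein genes called higher at day 3 than at day 0, with ratios of 4.21 (interval 0.840 to 40.7) and 6.31 (0.766 to 290), both of which hold 1. Rpl38, whose loss in mice disturbs translation of Hox mRNAs, had 2, 2 and 4. Rpl22, a protein also known to bind a small viral RNA in human cells, had 6 on each day, and its relative Rpl22l1 had 1 on each day. Rpl15 had 3 on each day.

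Among small-subunit genes Rps3 had 10, 9 and 7 sites, with a share at day 10 of 0.280 times that at day 0 (interval 0.0905 to 0.816). Rps15a differed most from day 0 to day 3 in its count. It had 1 site at day 0, 14 at day 3 and 8 at day 10, and its share was 14.7 times as high at day 3 as at day 0 (interval 2.24 to 623). The 14 sites lay along the whole gene, from 15 nt before the start of the span to 11555 nt after it. Rps6, the substrate of the S6 kinases, had 6 sites on each day. Rps19 (8, 7 and 10), Rps24 (5, 7 and 11) and Rps26 (2, 4 and 8) are genes whose human counterparts are mutated in Diamond-Blackfan anaemia, and each had sites on all 3 days. Rps12 had 8, 5 and 9. Rps9, Rps13, Rps15 and Rps27l had no site at day 0 and 4, 3, 3 and 3 at day 3. Rps9 and Rps27l, together with Rpl7 and Rpl41, were the 4 ribosomal protein genes called higher at day 10 than at day 0, and all 4 were listed with 0 sites at day 0. Rps28 and Rps29 were the small-subunit genes with the fewest sites over the 3 lists, 1, 1 and 2 each.

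Many sites of ribosomal protein genes overlapped a site of another day. Of the day 0 sites in these genes, 58.9% shared at least 1 nt with a day 10 site on the same strand (152 of 258, interval 52.6% to 65.0%). The share was 27.3% for initiation factor genes (21.0% to 34.4%), 33.6% for other genes of at most 5 kb (27.9% to 39.6%) and 23.9% for all other genes. Of the day 3 sites, 43.7% were found at day 0 and 55.1% at day 10, compared with 24.5% and 29.1% in initiation factor genes, 28.0% and 35.1% in other short genes and 17.4% and 25.4% in all other genes. Sites at the start recurred most. Of these, 88.4% of day 0 sites were found at day 10 (38 of 43, interval 74.9% to 96.1%) and 53.0% of the other ribosomal protein sites (114 of 215, 46.1% to 59.8%). Sites at the start are confined to 60 nt, where sites of different days overlap more readily than along a whole gene. Part of this difference is therefore built in, and how much was not tested. Sites also overlap more readily where they are denser. At spans of at most 5 kb, ribosomal protein genes had 1.71 sites per kb at day 10 and other genes 0.568. How far this density enters the shares found again was not tested. At identical positions the difference between ribosomal protein genes and other short genes was smaller. Of the day 0 sites, 26.4% of those in ribosomal protein genes (interval 21.1% to 32.2%) and 17.0% of those in other short genes (12.7% to 22.1%) were found at day 10, with overlapping intervals. With 1 nt shared, and away from the start, the share was above that in other short genes, with intervals that did not overlap for day 0 sites or day 3 sites in the day 10 list.

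**Figure D4:**
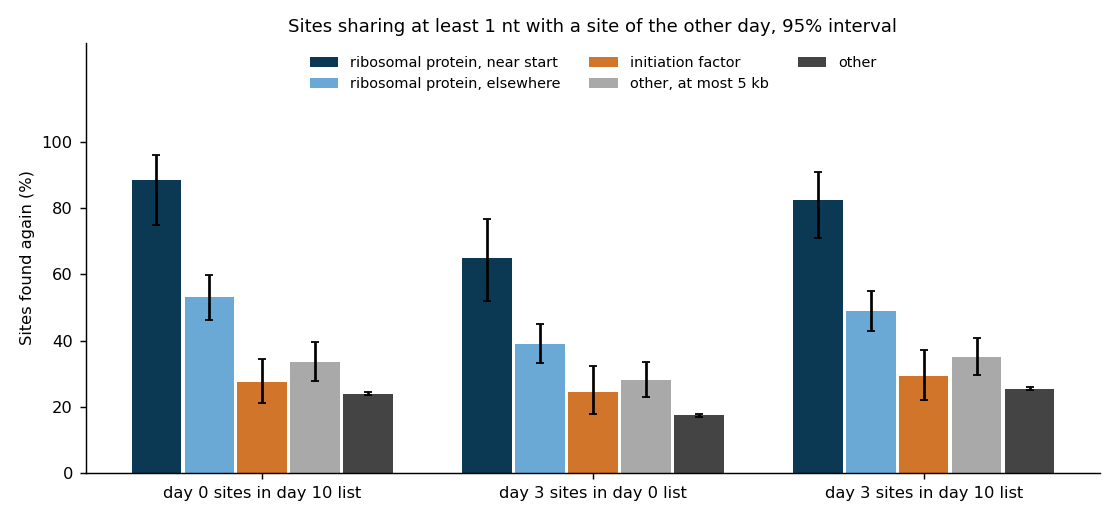
Percentage of sites of the first-named list that share at least 1 nt with a site of the second list on the same strand, with exact binomial 95% intervals, for ribosomal protein sites near a start and elsewhere, initiation factor genes, other genes of at most 5 kb and all other genes. The sites at starts of ribosomal protein genes are highest in each comparison, at 88.4%, 65.1% and 82.5%, which is partly built in by their narrow window.

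When overlapping sites of the 3 days were joined, ribosomal protein genes had 622 separate positions, of which 114 were bound on all 3 days (18.3%), in 55 genes. Initiation factor genes had 453, with 26 on all 3 days (5.74%) in 17 genes. Rpl17 had 6 of 17 positions on all 3 days and Rps3 had 5 of 13, among them those at 62 and 67 nt from the start. Rpl12 and Rpl23 each had 4 of 12 and Rps2 had 4 of 11. Rpl34 had 3 of only 5. The median position along the gene, from 0 at its start to 1 at its end, was 0.407, 0.400 and 0.432 in ribosomal protein genes and 0.616, 0.593 and 0.600 in initiation factor genes at days 0, 3 and 10, beside 0.504, 0.501 and 0.478 in other genes. The final 10% of the gene's length held 20.2%, 21.2% and 23.6% of initiation factor sites, 8.14%, 9.38% and 8.93% of ribosomal protein sites at days 0, 3 and 10, and 12.1% of the sites in other genes at day 0 and 10.8% at day 10. Exon and intron were not assigned, since no exon annotation of the build was used. Of the 74 ribosomal protein genes 27 contain small nucleolar RNAs, 54 in all. These 27 genes had 445 sites over the 3 lists, of which 9 lay inside a small nucleolar RNA and 65 lay inside or within 50 nt (14.6%). The 7 initiation factor genes with such RNAs had 154 sites, of which 22 lay inside or within 50 nt (14.3%). The share of gene length that lies so near these RNAs was not measured, so no enrichment can be read from these percentages.

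**Figure D5:**
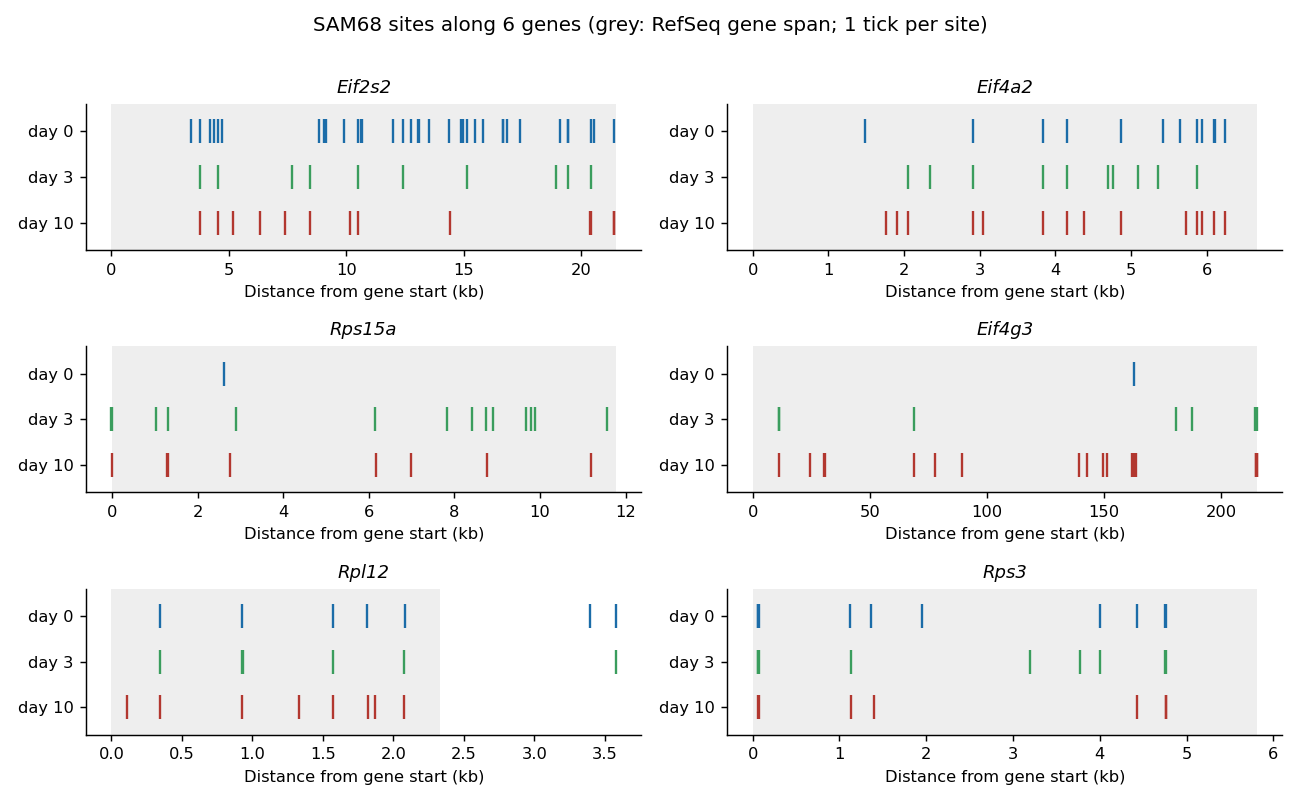
Positions of sites along 6 genes, in kb from the start of the RefSeq span (grey), with 1 tick per site and a line per day. Eif2s2 has 35 ticks at day 0, 10 at day 3 and 13 at day 10. Rps15a and Eif4g3 have 1 tick each at day 0, and Rpl12 and Rps3 show ticks repeated at the same positions on all days. The ticks of Rpl12 beyond the span belong to the authors' longer gene model.

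Initiation factor genes ranged from 0 to 35 sites at day 0, 0 to 14 at day 3 and 0 to 19 at day 10. The eIF2 complex, which carries the initiator tRNA, had 52 sites at day 0, 24 at day 3 and 39 at day 10 over its 4 genes, and a share at day 10 of 0.30 times that at day 0 (interval 0.193 to 0.464). Eif2s2, its beta subunit, had 35 at day 0, 10 at day 3 and 13 at day 10, the highest sum over the 3 lists and the highest count at day 0 of the 116 genes. Its share was 0.149 times as high at day 10 as at day 0 (0.0722 to 0.288) and 0.301 times as high at day 3 as at day 0 (0.133 to 0.620). The day 0 sites were spread over the gene from 3376 to 21417 nt, and 4 of its 45 positions were bound on all 3 days. In the sum over the complex, Eif2s2 gave 35 of the 52 sites at day 0 and 13 of the 39 at day 10. Eif2s1, the alpha subunit phosphorylated under stress, had 8, 8 and 10 sites and a ratio at day 10 over day 0 of 0.500 (0.178 to 1.46). The gamma subunit has an X-linked and a Y-linked gene in mouse. Eif2s3y had 7, 6 and 16 sites and Eif2s3x had 2, 0 and 0. The ratio of Eif2s3y at day 10 over day 0 was 0.915 (0.356 to 2.63). Its interval and that of Eif2s1 hold 1. At day 10 Eif2s3y had more sites than Eif2s2.

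The genes of the exchange factor eIF2B, which reloads eIF2 with GTP, had 8 sites at day 0, 3 at day 3 and 0 at day 10. These were in Eif2b3 (6, 3 and 0) and Eif2b5 (2, 0 and 0), while Eif2b1, Eif2b2 and Eif2b4 had no site. The genes of the 4 kinases that phosphorylate eIF2 alpha had 5, 7 and 17 sites. As a share this was 1.36 times as high at day 10 as at day 0 (interval 0.482 to 4.72) and so within counting error. Eif2ak4, the kinase that senses uncharged tRNA, had 1, 1 and 6, and Eif2ak2, the kinase activated by double-stranded RNA, had 3, 1 and 6. Eif1 and Eif1a, which act in scanning for the start codon, had 6, 2 and 6 and 13, 3 and 8. Both were called lower at day 3 than at day 0, with ratios of 0.351 (interval 0.0346 to 1.96, which holds 1) and 0.243 (0.0444 to 0.884), as were Eif2s2 and Eif4e2.

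Genes for each part of the cap-binding complex eIF4F (eIF4A, eIF4G and eIF4E) had sites in their RNA. The helicase genes Eif4a1 and Eif4a2 had 5, 5 and 5 and 12, 10 and 14 sites, and the helicase cofactors Eif4b and Eif4h had 10, 14 and 9 and 3, 6 and 6. Eif4a2 had 4 of 24 positions on all 3 days. Together with Eif4a3, a core protein of the exon junction complex, these genes had a ratio of shares of 0.450 at day 10 over day 0 (interval 0.272 to 0.749). The genes named for the scaffold eIF4G, which are Eif4g1, Eif4g2 and Eif4g3, had 17, 21 and 40 sites. This is a ratio of 0.942 (0.522 to 1.77). Of these sites Eif4g2 had 8 on each day. Eif4g1 had 8, 6 and 13. Eif4g3 had 1 site at day 0, 7 at day 3 and 19 at day 10 and was the one initiation factor gene called higher at day 10 than at day 0, with a ratio of 7.61 (1.21 to 316). It is also the one with a span over 100 kb, 215 kb, the length class in which other genes had higher shares at day 10. The cap-binding protein gene Eif4e had 6, 4 and 10 sites. Eif4e2, a cap-binding relative known as a repressor of translation, had 6, 1 and 0, and Eif4ebp2, which encodes an inhibitor of eIF4E, had 3, 7 and 5.

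The eIF3 genes together had 21, 26 and 45 sites over 12 members, with a ratio at day 10 over day 0 of 0.858 (interval 0.501 to 1.52). Eif3a, the largest subunit and a scaffold of the complex, had 9, 11 and 19 of them, and Eif3e had 3, 3 and 6. Eif3b and Eif3d had none. In the later steps Eif5, which activates GTP hydrolysis by eIF2, had 3 sites on each day, Eif5b, which joins the subunits, had 1 on each day, and Eif5a, which also acts in elongation, had 1, 2 and 4. Over all members, 21 of 116 had fewer than 5 sites in the 3 lists together, 7 ribosomal protein and 14 initiation factor genes, and no direction between days can be read from those.

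Other genes of the translation machinery were counted for comparison. Aminoacyl-tRNA synthetases had 65 sites at day 0, 33 at day 3 and 50 at day 10, with a ratio of shares of 0.308 at day 10 over day 0 (interval 0.209 to 0.452). By the rule above 5 of 7 of them were lower at day 10 than at day 0, where 26.4% of all named genes were. Ribosome assembly genes had 89, 93 and 79 sites and a ratio of 0.355 (0.259 to 0.487), and 6 of 9 were lower. Among them Nop58, a core protein of small nucleolar RNPs, had 25, 27 and 28 sites and Npm1 had 17, 15 and 20. Elongation and termination factors had 58, 62 and 88 sites (ratio 0.607, 0.431 to 0.861) and the mitochondrial ribosome had 46, 50 and 70 (0.609, 0.414 to 0.904). Mitochondrial ribosomal proteins were covered less, with 27 of 78 genes (34.6%) having a site. Lower at day 10 than at day 0 were 2 of 7 elongation and termination genes and 1 of 4 mitochondrial ribosome genes. In poly(A)- and cap-binding partners, with 62, 75 and 152 sites, the ratio was 0.981 (0.726 to 1.34) and 0 of 6 genes were lower. The S6 kinase and mTOR genes, with 49, 104 and 169 sites, had a share at day 3 of 2.23 times that at day 0 (1.58 to 3.20). At day 10 it was 1.38 times that at day 0 (0.999 to 1.94). At day 10 over day 0, 1 of 11 of these genes was lower and 4 were higher, where 28.5% of all named genes were higher. Of the sites in S6 kinase and mTOR genes, Rictor had 7, 17 and 35 and Rps6ka3 had 9, 11 and 50.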

How the data were processed

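SAM68 iCLIP2 binding sites were analysed from 15 libraries in 3 groups of 5. The authors deposited 1 list per day, in which, per the file headers, every site carries a gene and overlaps between genes were removed. The deposited score is 0 for every site and was not used. The other deposited values are positions, strand, gene ID and gene class. The submitters' processing notes name the builds GRCm38.p5 and GRCh38.p14, STAR 2.7.11a and UMI-tools 1.1.6. Not given in the sources used here are the site caller, the treatment of reads that map to several places and how libraries were joined.

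Of 7380 protein-coding IDs, 7145 were named by the RefSeq span (GRCm38.p6) that held at least 80% of their sites. Shares are sites over list length, and ratios have exact conditional 95% intervals. Log2 ratios used a pseudocount of 1, and a call needed 5 sites over both lists and a fold of 2. Starts were those of the RefSeq promoter table, which holds 90 of the 116 genes, and of the gene span. A gene could be named if it had at least 5 sites over the lists, a site on all 3 days or a call in any pair of days, and from each other translation list up to 3 genes with most sites. Single values of 2 members are not reported here, though the counts over the family include them. Genes named outside this rule are given for their count or absence. The members and lists were chosen with earlier results of these data known. The counting was tested on simulated data. Python 3.11.15, pandas 2.3.3 and SciPy 1.17.1 were used.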

Additional observations from a re-analysis of the deposited data

How the results depend on the processing

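No paired analysis was possible because each list pools the 5 libraries of a day, so the replicate numbers in the labels belong to no value, and no library could be left out in turn. The motif count at all sites and the split by exon and intron were not run, since no genome of the build was used. The lists hold no reads, so at a start a cDNA that stopped at a crosslink and one that ran to the end of the RNA cannot be told apart. How reads shared with pseudogenes were placed is not given here; 25 of 309 ribosomal protein pseudogenes in RefSeq had sites of their own (14, 24 and 26 at days 0, 3 and 10).

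The ratios of shares kept their direction under every alternative run. Relative to other genes of at most 5 kb, short ribosomal protein genes had ratios of 0.763 at day 10 over day 0 and 0.631 at day 10 over day 3. The intervals of the 2 sets of short genes overlapped for day 10 over day 0 but not for day 10 over day 3. The cause of the moves below was not tested beyond what each setting does to the number of genes or sites counted. Counts of calls are given for ribosomal protein genes, initiation factor genes and all members in turn unless named. With at least 10 sites, 16 of 27 ribosomal protein genes and 25 of 41 members were lower at day 10 than at day 0 (24.4% of all named genes), and 0 and 1 were higher (30.6%). Lower at day 10 than at day 3 were 22 of 38, 7 of 15 and 29 of 53 (21.8%). At day 3 over day 0, 3 of 25, 1 of 13 and 4 of 38 were higher (17.6%) and 0, 2 and 2 lower (16.8%). The median log2 ratio at day 10 over day 0 was then -1.13, for ribosomal protein genes and all members alike. With no minimum, 15 of 73, 11 of 42 and 26 of 115 were higher at day 3 than at day 0, below the 28.4% of all named genes, and 20 of 38 initiation factor genes were lower at day 10 than at day 3 (32.7%). With a fold of 3, 3 of 62, 4 of 26 and 7 of 88 were lower at day 10 than at day 0, below the 17.5% of all named genes, while with a fold of 2 the members stood above the share of all genes. Higher were 1 ribosomal protein gene and 2 members (17.5%). Lower at day 10 than at day 3 were 14 of 67, 3 of 26 and 17 of 93 (16.1%). At day 3 over day 0, 0 of 57 ribosomal protein genes and 3 of 79 members were lower (9.79%) and 1 of 22 initiation factor genes was higher (10.6%). With neighbouring sites merged, 1 of 54 ribosomal protein genes and 2 of 80 members were higher at day 10 than at day 0 (27.4%), and 1 of 22 initiation factor genes at day 3 than at day 0 (18.7%). A pseudocount scaled to list length gave medians over all members of -0.64 at day 10 over day 0 and -0.87 at day 10 over day 3, with 0.09 and -0.01 over all named genes.

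Identical positions were found again for 26.4% of ribosomal protein and 12.02% of initiation factor sites of day 0 at day 10, for 19.1% and 9.93% of day 3 sites at day 0 and for 29.9% and 13.9% of day 3 sites at day 10. Other genes of at most 5 kb had 17.0%, 17.2% and 18.9%, with intervals that overlapped those of ribosomal protein genes except for day 3 sites at day 10. With centres up to 20 nt apart the ribosomal protein shares were 68.6%, 49.9% and 63.3%. Initiation factor genes with at least 2 sites were 42.9% of the family at day 0 and 50.0% at day 3. The alternatives for starts were chosen after seeing the data. They gave ribosomal protein shares of 23.6%, 24.9% and 21.6% with the window to 100 nt, 12.02%, 14.1% and 10.9% at the span's start alone, and 14.1% at day 3 with merged sites. For single genes, under merged sites and the other pseudocounts alone, the outcome, called or not called, was unchanged in 726 comparisons. A call was lost in 27 and gained in 27. The unchanged ones include genes called in neither setting. In the main setting 45 of 88 members were not called at day 10 over day 0. At day 3 over day 0 these were 66 of 79 and at day 10 over day 3 42 of 93.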
